A study of Mus musculus with 4 samples.

Results

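The transcripts described here encode subunits of the receptors for glutamate and GABA, the main excitatory and inhibitory transmitters of the brain. The set holds 32 genes, taken by name out of 54532 genes in the deposited files: 4 AMPA, 6 NMDA and 5 kainate receptor subunits, 6 metabotropic glutamate receptors, 9 GABA-A receptor subunits and both GABA-B receptor subunits. It is a selection, so other subunits of the same receptors are not described. Poly-A RNA was sequenced from brain tissue of C57BL/6 mice, with 1 library for each of 4 groups. Naive young mice (labelled 8 to 12 weeks of age) had no tumor. Young tumor-bearing mice of the same age range received 50000 GL261 cells, a mouse glioma line, into the brain, and tissue was collected on day 21. Old naive and old tumor-bearing mice, the latter given the same engraftment, carry an age range of 8 to 90 weeks in the labels, which starts where the range of the young mice starts. The title calls the tissue extra-tumoral, and the labels give neither the brain region nor the number of mice behind a library. The GL261 tag also stands on the naive samples, and the group tag was followed. With 1 library per group no difference below has a replicate check or a test, and every interval covers counting error only.

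AMPA, kainate and NMDA receptors are glutamate-gated channels assembled from several subunits, and they carry fast excitatory transmission. Metabotropic glutamate receptors act through G proteins and adjust release and excitability. GABA-A receptors are chloride channels of mixed subunits, whose alpha and gamma or delta members set drug sensitivity and placement at or outside the synapse, and GABA-B receptors are obligate pairs that act through G proteins. Neurons express most of these genes, and some are also used by glia, such as Grm3 and Gabrg1 in astrocytes.

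The stretches below show how alike the channel subunits are where the ion path narrows, and which subunits differ there. Each is 45 bases of coding sequence, 5′ to 3′ on the sense strand, read from GENCODE M21 transcripts (mm10), with the codon of the pore site in capitals: the glutamine codon of the AMPA and kainate subunits, or the asparagine codon of the NMDA subunits. The 4 AMPA subunits, which the age comparison below separates, come first, then the kainate subunits Grik3 and Grik5 and the NMDA subunits Grin2a, Grin2c and Grin2d.
Gria1: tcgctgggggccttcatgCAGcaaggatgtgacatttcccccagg
Gria2: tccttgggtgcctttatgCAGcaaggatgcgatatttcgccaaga
Gria3: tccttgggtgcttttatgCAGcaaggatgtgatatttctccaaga
Gria4: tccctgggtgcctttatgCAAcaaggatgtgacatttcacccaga
Grik3: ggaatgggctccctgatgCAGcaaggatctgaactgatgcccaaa
Grik5: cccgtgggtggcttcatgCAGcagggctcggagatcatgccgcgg
Grin2a: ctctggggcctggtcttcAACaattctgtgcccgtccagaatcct
Grin2c: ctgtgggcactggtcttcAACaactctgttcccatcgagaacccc
Grin2d: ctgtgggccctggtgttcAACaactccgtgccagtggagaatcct
AMPA subunits shared 36 to 42 of the 45 bases in pairs, the 5 kainate subunits 22 to 40, and Grin2a, Grin2c and Grin2d 36 to 37. Gria4 spelled the glutamine as CAA and the other AMPA subunits as CAG. In Gria2 this codon (mm10 chr3:80706911-80706913, minus strand, exon 11 of 16) is known to be recoded to arginine by RNA editing, which makes receptors holding it nearly impermeable to calcium. The reference holds a glutamine codon in all AMPA and kainate subunits, and levels per gene do not report editing.

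Levels are given as FPKM, fragments per kilobase of a gene's exons scaled to the depth of the library. Recovered fragments in genes numbered from 19557461 to 23261888 per library. Neuronal transcripts were present in all 4 libraries, with 16 of 16 pan-neuronal markers above 0 and a summed level of 2099, 1824, 2568 and 596 FPKM (young naive, young tumor-bearing, old naive, old tumor-bearing, the order used throughout). Libraries also differed in other markers. In the old tumor-bearing library the 10 cell-cycle genes summed to 216 FPKM, against 4.51, 12.5 and 3.68 FPKM in the others, and the 10 leukocyte genes to 60.4 FPKM against 1.85, 9.32 and 2.57 FPKM. The 10 cerebellar markers summed to 665 and 642 FPKM in the young libraries and to 105 and 38.3 FPKM in the old ones.

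The question of the old comparison is how transmitter receptor transcripts stand in old mice that bear glioma, in tissue titled extra-tumoral. Whether this tissue was free of tumor cells was not tested. All 32 receptor genes were lower in the old tumor-bearing library than in the old naive one, by 2.25-fold (Grin2d, an NMDA subunit) to 9.63-fold (Gabra3, a GABA-A alpha subunit). Their summed level was 193 FPKM against 845 FPKM, 4.37-fold lower. All 32 passed the 2-fold mark, while 31.4% of all genes above the floor of 1 FPKM, and 29.7% of protein-coding ones, were at least 2-fold lower. The median log2 ratio, taken on FPKM plus 0.1, was -2.12 for the receptor genes, -0.30 for all genes and -2.48 for the 16 pan-neuronal markers. Of the latter, 15 were at least 2-fold lower, led in level by Uchl1 (244, 201, 332 and 143 FPKM), Snap25 (262, 226, 325 and 43.5 FPKM) and Syn1 (188, 175, 301 and 39.7 FPKM). In bulk tissue, fewer cells of a type and less RNA per cell cannot be told apart. Markers of brain regions also differed in this pair. All 10 striatal markers were at least 2-fold lower, at 69.6 against 674 FPKM in sum and with a median log2 ratio of -3.31. The 8 thalamic markers summed to 44.6 against 23.5 FPKM, and most of that difference was Prkcd, at 16.5, 18.5, 3.15 and 23.5 FPKM. Of the 6 thalamic markers above the floor, 2 were at least 2-fold higher. Others did not rise, such as Rora at 13.7, 13.4, 6.33 and 3.12 FPKM. Mitochondrial genes held 2.12% of fragments against 5.44%. The part of the lower neuronal total, of the higher cell-cycle and leukocyte totals, of the regional markers, of the mitochondrial share and of this library itself in the receptor values was not tested.

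**Figure D1:**
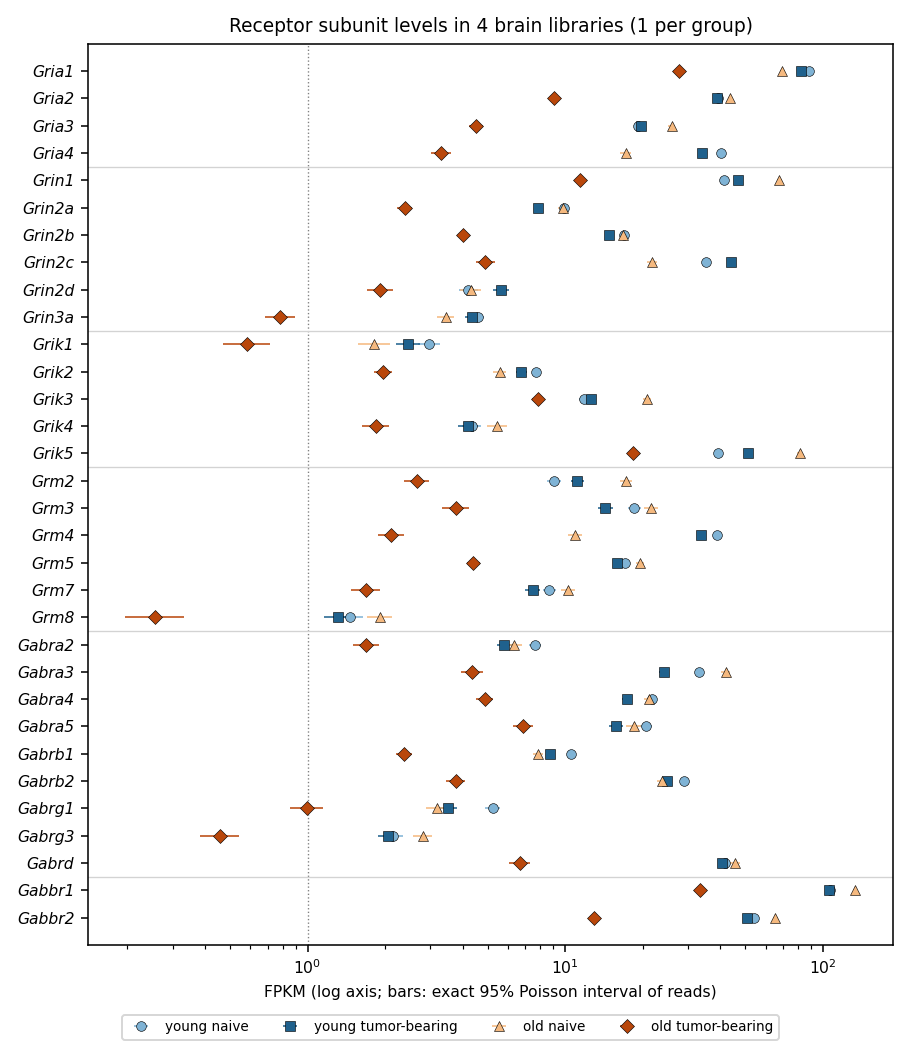
Level of each of the 32 receptor genes in the 4 libraries, as FPKM on a log axis, with 1 point per library and whiskers for the exact 95% Poisson interval of the recovered reads. The old tumor-bearing library has the lowest point for all 32 genes, and in it 5 genes lie under 1 FPKM.

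AMPA subunits carry most fast excitatory current. Gria1 was the highest of them, at 88.6, 81.9, 69.5 and 27.5 FPKM, and was 2.52-fold lower (2.42 to 2.63) in the old tumor-bearing than in the old naive library, the smallest difference of the family. Gria2, the subunit that blocks calcium entry, stood at 39.1, 38.7, 43.7 and 9.06 FPKM, 4.82-fold lower (4.64 to 5.02). Gria3, on the X chromosome, stood at 19.1, 19.6, 25.9 and 4.497 FPKM, 5.76-fold lower (5.37 to 6.17). Gria4 was at 40.3, 34.1, 17.2 and 3.31 FPKM, 5.19-fold lower (4.69 to 5.76). For Gria4 the 2 young libraries were high and both old ones low, so its old tumor-bearing value lay below a level that was already lower in the old naive mice.

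NMDA receptors need the subunit Grin1, which binds glycine, together with Grin2 subunits that bind glutamate. Grin1 was at 41.3, 46.8, 67.8 and 11.4 FPKM, 5.96-fold lower (5.70 to 6.22) in the old tumor-bearing than in the old naive library. Of its exon bases, 13.5% overlap Grin1os on the opposite strand (3.74, 6.16, 9.26 and 1.73 FPKM), and since the strand setting of the libraries is not known the reads of both genes cannot be told apart. Grin2a, the typical subunit of mature forebrain synapses, was at 9.92, 7.87, 9.77 and 2.38 FPKM, 4.11-fold lower (3.82 to 4.42). Grin2b, which dominates in early life and stays in the adult forebrain, was at 17.0, 14.8, 16.7 and 4.02 FPKM, 4.16-fold lower (3.97 to 4.37). The level of Grin2b per Grin2a was 1.71, 1.88, 1.72 and 1.69 in the 4 libraries. These forebrain subunits thus kept nearly one proportion in the young naive and both old libraries. In the young tumor-bearing library the ratio (1.80 to 1.96) lay above that of the young naive one (1.64 to 1.78) by counting error. Grin2c, known from cerebellar granule cells, was at 35.1, 44.1, 21.7 and 4.90 FPKM, 4.44-fold lower (4.03 to 4.88). Grin2d was at 4.21, 5.62, 4.31 and 1.91 FPKM, 2.25-fold lower (1.94 to 2.62), the smallest difference of all 32 genes, with 9.66% of its exon bases shared with a gene on the opposite strand. Grin3a, a glycine-binding subunit that lowers calcium flow, was at 4.57, 4.35, 3.44 and 0.785 FPKM, 4.38-fold lower (3.76 to 5.12), and ended under 1 FPKM.

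Kainate receptors combine the low-affinity subunits Grik1 to Grik3 with the high-affinity subunits Grik4 and Grik5. Grik5 was the highest, at 39.1, 51.2, 81.3 and 18.3 FPKM, 4.45-fold lower (4.24 to 4.67) in the old tumor-bearing than in the old naive library. Its partner Grik4 was at 4.34, 4.19, 5.44 and 1.84 FPKM, 2.96-fold lower (2.54 to 3.45). Among the low-affinity subunits, Grik1 was at 2.96, 2.46, 1.82 and 0.582 FPKM, 3.12-fold lower (2.42 to 4.05). Grik2 was at 7.73, 6.76, 5.58 and 1.96 FPKM, 2.85-fold lower (2.58 to 3.15). Grik3 was at 11.8, 12.6, 20.8 and 7.81 FPKM, 2.66-fold lower (2.50 to 2.83), and its old tumor-bearing level was the closest of the 32 genes to the young tumor-bearing one, 1.61-fold lower (1.51 to 1.72). The family's median log2 ratio was -1.49, the nearest to 0 of the 6 families. By summed FPKM the AMPA family was nearer, at 3.52-fold lower against 3.77-fold for kainate. All 5 of 5 kainate genes lay above the pan-neuronal median of -2.48, as did 2 of 2 GABA-B and 5 of 6 NMDA genes. So did 3 of 4 AMPA, 6 of 9 GABA-A and 2 of 6 metabotropic genes.

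Metabotropic receptors divide into group I, which activates phospholipase C, and groups II and III, which lower cyclic AMP. The group I receptor Grm5 was at 17.1, 15.9, 19.5 and 4.40 FPKM, 4.42-fold lower (4.12 to 4.75) in the old tumor-bearing than in the old naive library. In group II, Grm2, a presynaptic receptor, was at 9.04, 11.1, 17.2 and 2.65 FPKM, 6.48-fold lower (5.72 to 7.37), and 9.60% of its exon bases overlap a gene on the opposite strand whose level was at most 0.18 FPKM. Grm3, the group II receptor that astrocytes also use, was at 18.5, 14.3, 21.5 and 3.77 FPKM, 5.72-fold lower (4.99 to 6.57). Of 12 astrocyte markers 9 were at least 2-fold lower in this pair, with a median log2 ratio of -1.59, and Gfap, a marker of reactive astrocytes, was higher, at 61.1, 149, 42.2 and 167 FPKM. In group III, Grm4, the receptor of cerebellar granule cell terminals, was at 38.7, 33.5, 10.9 and 2.12 FPKM, 5.15-fold lower (4.52 to 5.89). Grm7 was at 8.68, 7.47, 10.2 and 1.68 FPKM, 6.09-fold lower (5.27 to 7.07). Grm8 was at 1.46, 1.31, 1.90 and 0.256 FPKM, 7.43-fold lower (5.60 to 10.0), and had the lowest old tumor-bearing level of all 32 genes. The median log2 ratio of these 6 receptors, -2.49, was the lowest of the 6 families, beside -2.48 for pan-neuronal markers.

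GABA-A genes ranged from 2.69-fold to 9.63-fold lower. Gabra3 was at 33.2, 24.1, 42.0 and 4.36 FPKM, 9.63-fold lower (8.66 to 10.7) in the old tumor-bearing than in the old naive library, the largest difference of all 32 genes. Gabra5, an alpha subunit found outside synapses in the hippocampus, was at 20.6, 15.8, 18.4 and 6.85 FPKM, 2.69-fold lower (2.40 to 3.01), the smallest of the family. Gabra2, an alpha subunit linked to anxiety circuits, was at 7.63, 5.79, 6.32 and 1.69 FPKM, 3.75-fold lower (3.27 to 4.30). Gabra4, which pairs with the delta subunit, was at 21.7, 17.4, 21.2 and 4.86 FPKM, 4.35-fold lower (3.99 to 4.75). The delta subunit Gabrd, which serves tonic inhibition, was at 41.7, 40.6, 45.4 and 6.66 FPKM, 6.82-fold lower (6.16 to 7.58). Of the beta subunits, Gabrb2 was at 29.0, 24.9, 23.7 and 3.76 FPKM, 6.31-fold lower (5.75 to 6.93). Gabrb1 was at 10.5, 8.73, 7.84 and 2.36 FPKM, 3.32-fold lower (3.05 to 3.62). Among the gamma subunits, Gabrg1 was at 5.23, 3.49, 3.19 and 0.995 FPKM, 3.21-fold lower (2.69 to 3.85). Gabrg3 was at 2.15, 2.05, 2.80 and 0.458 FPKM, 6.12-fold lower (5.03 to 7.49), and both gamma genes ended under 1 FPKM. The GABA-B receptor is assembled from the ligand-binding Gabbr1 and the G protein coupling Gabbr2. Gabbr1, the highest of the 32 genes in all 4 libraries, was at 107, 106, 133 and 33.3 FPKM, 3.99-fold lower (3.87 to 4.11). Gabbr2 was at 53.9, 50.8, 65.3 and 12.9 FPKM, 5.06-fold lower (4.81 to 5.32).

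Several GABA-A genes lie side by side in the genome. Gabrg1 (mm10 chr5:70751047-70842617), Gabra2 (mm10 chr5:70957597-71095849), Gabra4 (mm10 chr5:71569749-71658308) and Gabrb1 (mm10 chr5:71658113-72149037) form a cluster, and Gabra4 and Gabrb1 share 46 exon bases on opposite strands. In the old pair these neighbours were 3.21-fold to 4.35-fold lower. Gabra5 (mm10 chr7:57407672-57510059) and Gabrg3 (mm10 chr7:56716465-57387188), neighbours on another chromosome, differed from each other, at 2.69-fold and 6.12-fold lower. Gabra3, the most distant gene, lies at mm10 chrX:72432681-72656848, and Grin2d, the least distant, at mm10 chr7:45831883-45878378.

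Measured against neuronal markers rather than depth, the receptor genes fell on both sides. Taking the pan-neuronal median as reference, which removes the scaling between libraries, 23 of 32 were above it and 9 below in the old tumor-bearing against the old naive library. The differences from it ran from -0.75 on the log2 scale for Gabra3 to 1.35 for Grin2d. The pan-neuronal markers themselves ranged from -2.95 to -0.79. Other ways to scale the libraries moved all log2 ratios of this comparison upward by 0.35 to 0.58. All 32 genes were below 0 under each of the 3 scalings tried, and 25 to 30 of them were at least 2-fold lower. Under the same scalings 18.6% to 22.5% of protein-coding genes were at least 2-fold lower. At equal fragments in genes, which gave 25, the genes short of 2-fold were Gria1, Grin2d, Grik1, Grik2, Grik3, Grik4 and Gabra5.

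**Figure D2:**
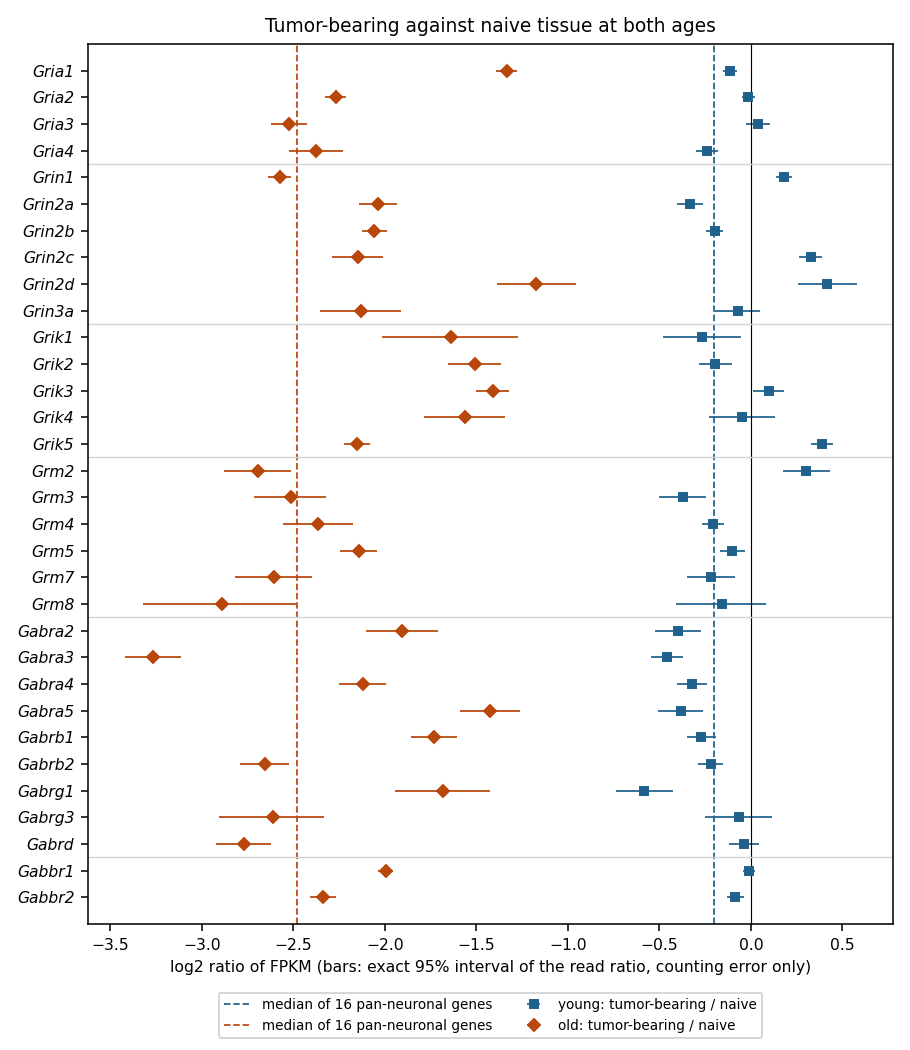
Log2 ratio of tumor-bearing to naive libraries for each of the 32 receptor genes, in young and in old mice, with 95% counting intervals and the median of the pan-neuronal markers as a line for each age. The young ratios sit between -0.57 and 0.41, and the old ones between -3.24 and -1.13.

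In young mice the receptor genes of the tumor-bearing library stood close to their naive levels. None of the 32 was 2-fold apart between the young tumor-bearing and the young naive library, while 5.05% of all genes passed that mark upward and 1.85% downward. Among protein-coding genes these shares were 2.32% and 0.35%. The summed receptor level was 758 FPKM against 791 FPKM. The median log2 ratio was -0.13, beside -0.0056 for all genes and -0.20 for pan-neuronal markers. By counting error alone, 18 receptor genes were lower, 6 higher and 8 had an interval that held 1, and 31.1% of protein-coding genes were lower and 26.1% higher by the same rule. Such an interval does not hold the spread between mice. The cell-cycle total was 12.5 FPKM against 4.51 FPKM in this pair, and the part of tumor cells in these ratios was not tested.

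GABA-A subunits leaned lower in the young tumor-bearing library, and so did pan-neuronal markers, with log2 ratios from -0.37 to 0.07. All 9 had ratios below 1 on the deposited scale, and 8 of 9 when the libraries were scaled to equal fragments in genes or to equal FPKM totals. The counting interval lay below 1 for 7 of the 9, where 31.1% of protein-coding genes were lower by the same rule. Gabrg1 was 1.497-fold lower (1.34 to 1.67) and Gabra2 1.32-fold lower (1.21 to 1.44). Gabra4 was 1.25-fold lower (1.18 to 1.33) and Gabrb1 1.21-fold lower (1.14 to 1.27). Gabra3 was 1.38-fold lower (1.30 to 1.46), and Gabrb2 1.17-fold lower (1.11 to 1.22). The family's median log2 ratio of -0.32 lay 0.12 below that of pan-neuronal markers, and 2 of the 9 genes lay above the pan-neuronal median. For all protein-coding genes the median was -0.02. Both GABA-B subunits were near their naive level, with Gabbr1 1.01-fold lower (0.986 to 1.03) and Gabbr2 1.06-fold lower (1.03 to 1.10), and each of the other scalings put 1 of them above 1.

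Glutamate receptors went both ways in the young pair. For 6 of the 21 genes the interval lay above 1, where 26.1% of protein-coding genes were higher by the same rule. Grin2c was 1.26-fold higher (1.201 to 1.31), Grik5 1.31-fold higher (1.26 to 1.36) and Grm2 1.23-fold higher (1.13 to 1.35). Grin2d was 1.34-fold higher (1.197 to 1.49), Grin1 1.13-fold higher (1.10 to 1.17) and Grik3 1.07-fold higher (1.01 to 1.14). The interval lay below 1 for 2 of 4 AMPA, 2 of 6 NMDA, 2 of 5 kainate and 4 of 6 metabotropic genes. Of protein-coding genes, 31.1% were lower by that rule. The lower receptor genes included Grm3 at 1.30-fold lower (1.18 to 1.42), Grin2a at 1.26-fold lower (1.199 to 1.32) and Grik2 at 1.14-fold lower (1.07 to 1.22). Gria1 was 1.08-fold lower (1.05 to 1.11), and for Gria2 the interval held 1, at 1.01-fold lower (0.985 to 1.04).

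Age was compared between the naive libraries, where no tumor was placed. The old naive library had 1 receptor gene at least 2-fold higher, Grik5 at 2.08-fold higher (1.998 to 2.16), and 2 at least 2-fold lower, Grm4 at 3.55-fold lower (3.32 to 3.81) and Gria4 at 2.34-fold lower (2.22 to 2.48). The same mark was passed upward by 6.71% and downward by 4.93% of all genes, and by 3.23% and 3.07% of protein-coding ones. The value of Grik5 passed the mark narrowly: with libraries scaled to equal fragments in genes or to equal FPKM totals it stayed under 2-fold. By counting error, 16 genes were higher, 12 lower and 4 held 1, where 37.4% of protein-coding genes were higher and 30.1% lower. The median log2 ratio was 0.08 for the receptor genes, 0.06 for all genes and 0.23 for pan-neuronal markers. On the deposited scale 15 receptor genes were below 0 and 17 above, and at equal FPKM totals 20 were below and 12 above.

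Both genes that were at least 2-fold lower with age are known from the cerebellum. All 10 cerebellar markers were at least 2-fold lower in the old naive library, with a median log2 ratio of -4.02. Among them, Car8 of Purkinje cells was at 113, 104, 2.29 and 0.424 FPKM, Pvalb at 173, 151, 62.8 and 16.7 FPKM and Calb1 at 78.9, 69.9, 24.2 and 4.60 FPKM. Grin2c, also known from cerebellar granule cells, was 1.62-fold lower (1.53 to 1.71). The 8 thalamic markers summed to 79.5 and 23.5 FPKM in the young and old naive libraries. The 10 striatal markers went the other way, from 369 FPKM in the young naive to 674 FPKM in the old naive library. Receptor genes that were higher in the old naive library were Grm2 at 1.90-fold higher (1.75 to 2.07), Grik3 at 1.76-fold higher (1.67 to 1.87) and Grin1 at 1.64-fold higher (1.59 to 1.69). Age and the makeup of the tissue by brain region cannot be told apart in these libraries. Other genes below the young naive level were Grik2 at 1.39-fold lower (1.29 to 1.49), Gabrg1 at 1.64-fold lower (1.45 to 1.85) and Grik1 at 1.63-fold lower (1.37 to 1.95). The GABA-B subunits were slightly higher, Gabbr1 1.25-fold higher (1.22 to 1.27) and Gabbr2 1.21-fold higher (1.17 to 1.25).

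**Figure D3:**
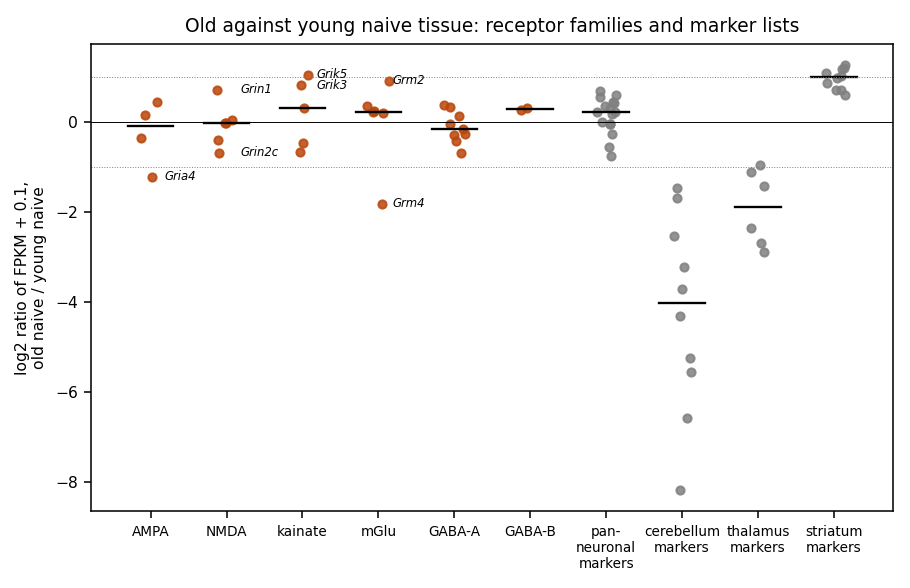
Log2 ratio of the old naive to the young naive library for the receptor genes by family, the pan-neuronal markers and the cerebellar, striatal and thalamic markers at 1 FPKM or more in either library, with 1 point per gene and a bar at each median. Cerebellar markers lie lowest with a median of -4.02, and Grm4 and Gria4 stand below the rest of the receptor genes.

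The tumor-bearing libraries differed more with age than the naive ones. Between old and young tumor-bearing mice, 31 of 32 receptor genes were at least 2-fold lower, where 29.8% of all genes and 27.9% of protein-coding ones were lower to that degree. The exception was Grik3. The largest differences were those of Grm4, 15.9-fold lower (14.1 to 17.9), Gria4, 10.3-fold lower (9.37 to 11.3), and Grin2c, 8.99-fold lower (8.24 to 9.82), whose naive levels already differed in that direction. The median log2 ratio was -1.90, beside -2.05 for pan-neuronal markers and -0.28 for all genes. This comparison shares the old tumor-bearing library with the old comparison and the young tumor-bearing one with the young comparison, so the ratios are not independent of each other.

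Setting the tumor ratio of old mice against that of young mice used all 4 libraries at once. The log2 ratio in old minus that in young was at or below -1 for all 32 genes, where 32% of all genes and 28.9% of protein-coding ones were that much lower. It had a median of -2.06 for the receptor genes, -2.24 for pan-neuronal markers and -0.32 for all genes. The value nearest to 0 was -1.02, for Gabrg1, and the farthest -2.95, for Grm2. With 1 library in each cell of this design the difference was not tested.

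Shares within a family do not depend on the scaling between libraries, and they show where subunits of one family differed unequally. Gria1 made up 47.4%, 47.0%, 44.5% and 62.0% of the summed FPKM of the 4 AMPA subunits, highest in the old tumor-bearing library. The share of Gria2 was 20.9%, 22.2%, 28.0% and 20.4%, and that of Gria4 21.5%, 19.5%, 11.0% and 7.45%. FPKM divides by all annotated exon bases, 15548 for Gria2 and 6043 for Gria1, so shares by reads differ, and Gria2 then takes 38.4%, 40.0%, 46.4% and 37.8%. On either scale the Gria2 share was highest in the old naive library. Gria1 stood above Gria2 in level by 2.27, 2.12, 1.59 and 3.04 times.

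Among the Grin2 subunits, Grin2c took 53.1%, 60.9%, 41.4% and 37.1% of the summed level, lower in both old libraries than in both young ones. Its exons span 5037 bases and those of Grin2b 24842, and by reads Grin2c took 22.0%, 28.9%, 15.01% and 13.7% while Grin2b led in all 4 libraries with 52.4%, 47.8%, 57.0% and 55.5%. In the kainate family Grik5 took 59.3%, 66.3%, 70.7% and 60.0%, and the level of Grik3 per Grik2 was 1.53, 1.87, 3.72 and 3.98. Within metabotropic receptors, Grm4 had a share of 41.4%, 40.1%, 13.4% and 14.2%, the largest of the 6 in the young libraries, and its level per Grm5 was 2.27, 2.11, 0.560 and 0.481.

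The GABA-A alpha subunits stood in another order in the old tumor-bearing library. Gabra3 took 39.9%, 38.3%, 47.8% and 24.6% of the summed level of Gabra2 to Gabra5, and Gabra5 took 24.8%, 25.02%, 21.0% and 38.6%. The level of Gabra3 per Gabra5 was 1.61, 1.53, 2.28 and 0.636, so Gabra5 exceeded Gabra3 in that library alone. Of the exon bases of Gabra5, 4.98% overlap a gene on the opposite strand that was at 0.15 FPKM there. Gabrb2 per Gabrb1 was 2.75, 2.85, 3.02 and 1.59, again lowest in the old tumor-bearing library. Gabrd per Gabra4, its usual partner, was 1.92, 2.34, 2.15 and 1.37. For the GABA-B pair, Gabbr1 per Gabbr2 was 1.98, 2.08, 2.04 and 2.58.

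**Figure D4:**
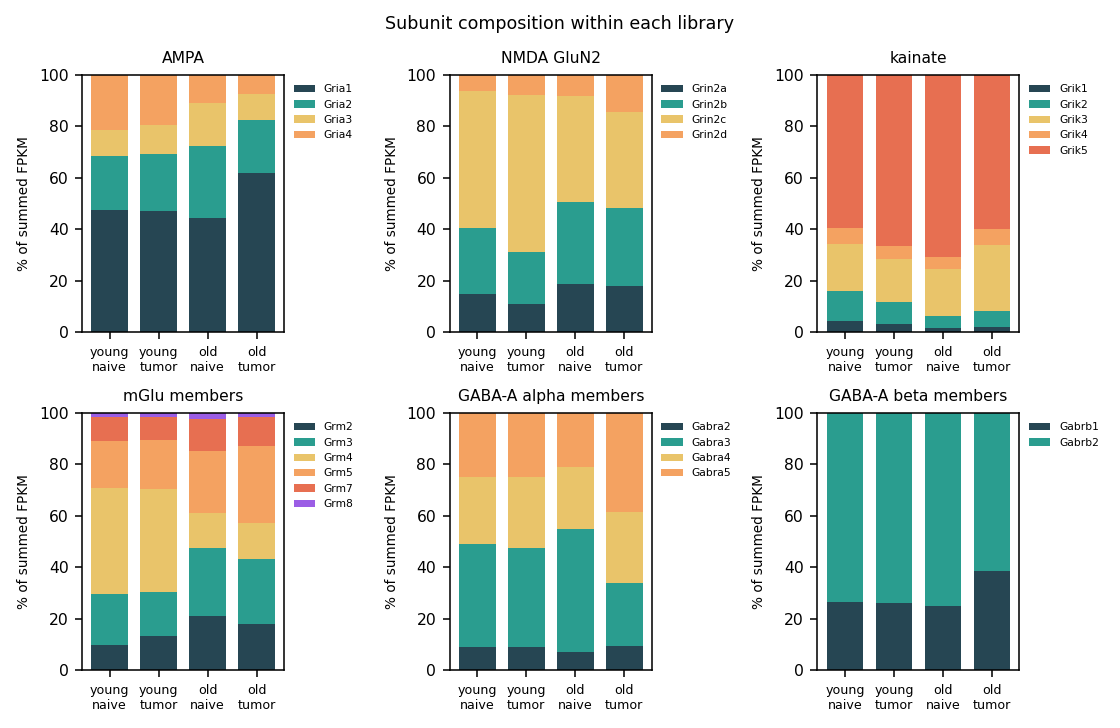
Share of each subunit in the summed FPKM of its family (percent, stacked to 100) in the 4 libraries, for 6 subunit families. Gria1 takes 62.0% of AMPA subunits and Gabra5 38.6% of the GABA-A alpha subunits in the old tumor-bearing library.

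Proteins that work with these receptors were read from 4 lists. In the old tumor-bearing against the old naive library, 31.4% of all genes and 29.7% of protein-coding ones were at least 2-fold lower. Auxiliary subunits of AMPA and kainate receptors, which guide channels to the membrane and slow their closing, were at least 2-fold lower for 11 of 14 in the old tumor-bearing against the old naive library, with a median log2 ratio of -2.05. The most distant were Gsg1l (18.1, 17.7, 34.8 and 2.45 FPKM) and Cacng3 (36.9, 29.0, 51.9 and 4.83 FPKM), followed by Cnih3 (18.9, 17.1, 31.5 and 4.46 FPKM). Neto1, an auxiliary subunit of kainate receptors singled out after its values were seen, differed from the list, at 16.6, 15.96, 22.5 and 45.1 FPKM, the highest level being that of the old tumor-bearing library. None of the kainate subunits was higher there.

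Of all genes, 31.4% were at least 2-fold lower and 20.6% higher in the old tumor-bearing against the old naive library. Scaffold proteins of excitatory synapses were at least 2-fold lower for 15 of 19 and higher for 1, with a median of -2.51. The most distant were Dlgap2 (9.20, 7.82, 15.95 and 2.12 FPKM), Dlgap3 (93.8, 98.2, 179 and 25.2 FPKM), Shank2 (22.1, 23.8, 29.0 and 4.65 FPKM) and Camk2a (279.7, 299, 575 and 94.6 FPKM). The scaffold that was higher was Homer3, at 17.2, 18.6, 2.88 and 5.86 FPKM, which is named after its value was seen and is known from Purkinje cells. On the inhibitory side 7 of 11 genes were lower, with a median of -2.04. Slc12a5, the chloride exporter KCC2 that lets GABA inhibit mature neurons, was at 96.0, 108, 154 and 24.0 FPKM, and Kctd8, an auxiliary subunit of GABA-B receptors, at 4.22, 5.04, 4.19 and 0.587 FPKM. Genes of glutamate and GABA supply and uptake were lower for 15 of 16, with a median of -2.25. The vesicular glutamate transporter Slc17a7 was at 175, 174, 356 and 44.2 FPKM, the vesicular GABA transporter Slc32a1 at 53.5, 45.1, 58.5 and 9.35 FPKM, and the GABA transporter Slc6a13 of the brain's coverings at 3.35, 4.41, 4.95 and 0.489 FPKM.

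Between old and young tumor-bearing mice, 29.8% of all genes were at least 2-fold lower and 19% higher. Of the auxiliary genes 13 of 14 were lower to that degree and 1, Neto1, higher. Also lower were 16 of 19 excitatory scaffold, 8 of 11 inhibitory scaffold and 14 of 15 supply genes above the floor. Between the young libraries none of the 14 auxiliary, 19 excitatory and 11 inhibitory scaffold genes, nor of the 15 supply genes above the floor, was 2-fold apart. Homer1, a scaffold gene with a short form induced by neuronal activity, came nearest, at 24.4, 12.6, 21.1 and 3.45 FPKM. With age in naive mice, 2 auxiliary genes were at least 2-fold lower, Shisa6 (10.4, 11.3, 1.99 and 3.12 FPKM) and Cacng5 (9.68, 10.3, 4.32 and 3.20 FPKM). Among the excitatory scaffolds of the same pair, Camk2a was at least 2-fold higher in the old naive library, and Homer3 at least 2-fold lower. The supply genes had Slc17a7 higher and Slc17a6 (22.2, 18.6, 2.90 and 3.31 FPKM) and Slc1a6 (23.9, 24.7, 6.09 and 0.859 FPKM) lower, the first of which also marks thalamus and the second Purkinje cells. No inhibitory scaffold gene was 2-fold apart with age.

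**Figure D5:**
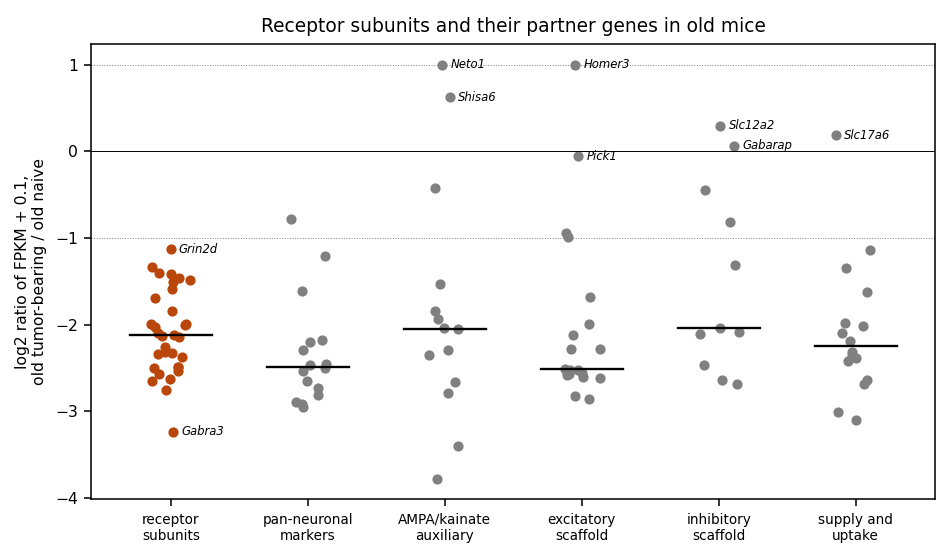
Log2 ratio of the old tumor-bearing to the old naive library for the receptor genes, the pan-neuronal markers and the 4 lists of partner genes. Genes are those at 1 FPKM or more in either library, with 1 point per gene and a bar at each median. Medians lie between -2.51 and -2.04, and Homer3 and Neto1 stand near 1.

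Promoters were also read for motifs, and any part of these motifs in the receptor values was not tested. The set of RefSeq promoters used here (GRCm38.p6) held 23 of the 32 genes, and the 250 bases before each start were searched on both strands. The Sp1 motif GGGCGG stood in 14 of 23 (60.9%), against 35.4% of 27025 genes, which were not limited to genes expressed in brain. The CRE motif TGACGTCA stood in 0 of 23, against 1.77% of genes. The NRF1 motif stood in 1 of 23, against 0.877%. That gene was Gabrb1, whose promoter holds the motif, in capitals, 16 bases before the start (GRCm38.p6 chr5:71699891-71699931, plus strand). This start lies inside the GENCODE span of Gabrb1 (mm10 chr5:71658113-72149037), not at its first base.
Gabrb1: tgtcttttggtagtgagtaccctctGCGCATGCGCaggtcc
A match is a stretch of letters and reports no binding. No promoter was read for Gria1, Gria3, Grin2a, Grin2b, Grin3a, Grik1, Grm4, Grm5 and Gabrd.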

How the data were processed

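Poly-A RNA of brain tissue was sequenced as 4 libraries, 1 per group, and groups were taken from the labels. Per the file headers, the authors deposited FPKM values, in a separate table for each library, and 54532 Ensembl genes were read from them. The submitters' processing notes name HISAT2 and mm10. How reads were counted, which annotation and filters were used and whether mice were pooled is not given in the sources used here, and the labels' protocols describe both a directional and a non-directional preparation. GENCODE M21 supplied symbols for 54409 genes and left 123 without one.

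FPKM times summed exon length came in whole steps, which gave back reads for 31883 of 32801 genes above 0 (97.2%, within 0.03 reads or 2e-05 of the value) and for all 32 receptor genes. No count test was run, because 1 library per group allows none. Folds are ratios of FPKM with an exact conditional binomial 95% interval of the reads, printed in brackets, and levels have exact Poisson intervals. Both cover counting error only. Log2 ratios used FPKM plus 0.1, for genes at 1 FPKM or more in either library, and a gene was called apart at 2-fold. The steps were tested on simulated data and run in Python 3.11.15 with numpy 2.4.6, pandas 2.3.3 and scipy 1.17.1.

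Members and lists were chosen with earlier results of these data known. All 32 receptor genes are named. Partner lists give at most 4 genes per comparison by largest log2 ratio, and marker lists at most 3 by mean level. Alternatives were pseudocounts, floors and 3 other scalings of the libraries. A gene of the scaffold list and a sequence are not reported here.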

Additional observations from a re-analysis of the deposited data

Results flagged for a closer look

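For 6 of the 32 receptor genes the tumor-bearing library stood above the naive one in young mice and below it in old mice, each beyond the counting interval. Since all 32 were lower in old mice, these are the 6 genes that were higher in the young pair, where 26.1% of protein-coding genes were higher by the same rule. The values are the log2 ratio in old minus that in young mice, and with 1 library per group the difference was not tested. It was -2.95 for Grm2, the presynaptic group II receptor, and -2.74 for Grin1, the obligatory NMDA subunit. Grik5, a high-affinity kainate subunit, had -2.53 and Grin2c -2.45. The smallest were -1.54 for Grin2d and -1.50 for Grik3.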

How the results depend on the processing

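Over all the alternatives run, the old tumor-bearing against old naive count of receptor genes at least 2-fold lower was 25 to 32, that of old against young tumor-bearing mice 25 to 31, and that of the age by tumor difference 23 to 32. The young pair gave 0 genes in either direction under all of them. The count of genes at least 2-fold higher in the old naive than in the young naive library was 1 as reported (Grik5) and 0 when libraries were scaled to equal fragments in genes or to equal FPKM totals, whose construction lowers every log2 ratio of that pair by 0.14 and 0.23. The genes at least 2-fold lower with age, Gria4 and Grm4, were 2 in number under every alternative. A floor of 5 FPKM gave 26 lower genes in the old pair because fewer genes were tested. No paired analysis was possible because each group has 1 library. Precision is set by the reads of each gene. Spread between mice could not be measured, and the young and old comparisons have no replicate.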
